A study of Mus musculus with 16 samples.

Results

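The 45 genes described here are those of proteins of the complement, coagulation and fibrinolysis systems of plasma, most of them secreted by hepatocytes. They were chosen by name, from what their proteins do, and all 45 were found among the 26296 gene identifiers of the deposited data. Poly(A) RNA had been sequenced from whole livers of 16 mice, with 1 library each: 4 female LKO (numbered 5 to 8), 4 female floxed (1 to 4), 4 male LKO (5 to 8) and 4 male floxed (1 to 4) mice. All groups carried floxed alleles of Matr3, which encodes the nuclear RNA-binding protein matrin-3. Liver-specific knockout (LKO) mice also carried an albumin-Cre transgene, whose promoter is active mainly in hepatocytes. Which other liver cells kept the gene was not measured. The floxed mice, littermates of the LKO mice per the labels, served as controls. All mice were put at 7 weeks of age on a high-fat diet (HFD) with 60% of its energy as fat, stayed on it for 16 weeks, and were fasted for 12 hours before the livers were taken.

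Between 30495505 and 36496193 counts were assigned to genes in each library. Levels are given as CPM, the count scaled to library size with TMM over the 16 libraries. A gene was called at an edgeR adjusted p under 0.05. Matr3 itself, the check of the labels, was at 39.8, 36.6, 37.6 and 38.3 CPM in female LKO livers and at 52.4, 64.0, 56.2 and 59.9 CPM in female floxed livers, with 34.0, 36.9, 36.6 and 34.3 CPM in male LKO livers and 55.9, 53.6, 61.7 and 60.0 CPM in male floxed livers. Its groups did not overlap in either sex. On the first principal component of the female libraries, LKO 7 (6.58) and floxed 4 (-10.3) lay nearest to the other genotype, where the other LKO females lay at 31.6 or above and the other floxed females at -32.7 or below. Both were chosen by that position, so that leaving them out widens the female contrast by construction, and calls gained that way are not read as results. In males, floxed 1 and 2 have mouse numbers far from the others, so male results and sex differences are also given without them.

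Complement is a cascade of plasma proteins that tags microbes and cells for clearance and can pierce membranes. It starts from antibody-bound C1 (C1ra, C1s1) or from mannose-binding lectins (Mbl1, Mbl2) with their proteases (Masp1, Masp2), runs through convertases built from C2, C3, C4 and factor B, and ends in the membrane attack complex of C5 (Hc in the mouse), C6, C7, C8 and C9. Coagulation is a cascade of proteases, started on surfaces by the contact system or by tissue factor with factor VII, that ends in thrombin cutting fibrinogen to fibrin, which plasmin dissolves again. Several of these genes, fibrinogen and C3 among them, are known as acute-phase genes that hepatocytes raise in response to interleukin 6 and related cytokines.

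In female LKO livers 13 of the 45 genes rose and 1 fell, where 9.29% of the 15432 genes tested were called (4.44% higher and 4.85% lower). The 3 fibrinogen chains, C8a, C8b, C6, C4a, Cpb2, Pros1, Clu, Mbl1, C4bp and Vtn rose, and C8g fell. In male LKO livers 3 of the 45 fell (C8b, C1ra and Kng2) and 0 rose, where 1.04% of the 15355 genes tested were called, 0.528% higher and 0.514% lower. limma-voom and DESeq2 also called 0 of the 45 higher in males, where they called 83 and 281 of all genes higher. At an unadjusted p under 0.05 edgeR had 0 of the 45 higher and 10 lower in males, where 12.3% of all genes passed (5.82% higher and 6.46% lower). In females 19 were higher and 2 lower at that level, where 27.7% of all genes passed (13.5% higher and 14.1% lower). With library totals in place of TMM, 449 of all genes were called higher and 1240 lower in females, against 685 and 748 with TMM, and 10 members were higher and 1 lower. The median log2 fold change over the 45 genes was 0.21 in females and -0.10 in males, against 0.00 and -0.01 over all genes tested. By sign alone, 33 of the 45 were higher in LKO females, against 50.2% of all genes, and 9 of the 45 were higher in LKO males, against 48.4% of all genes. C8b was called in both sexes, in opposite directions.

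Most of the 45 are among the abundant genes of the liver, and 39 averaged at least 100 CPM. Abundant genes were called more often than others. Of the 1487 genes of that level tested in females 16.6% were called (6.52% higher and 10.1% lower), and of the 1484 in males 1.82% (0.876% higher and 0.943% lower). Of the 39 abundant members 10 were higher and 1 was lower in females, and 0 were higher and 3 lower in males. In bulk liver, a change in the share of hepatocytes and a change in the RNA that each of them makes cannot be told apart.

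The LKO and floxed values of 15 genes did not overlap in females, all of them higher in LKO livers, and 16.0% of all genes had no overlap there (8.04% higher and 7.91% lower). These were the 12 called genes other than C6 that were higher, with C3, Hc and Plg. In males 6 genes did not overlap, all lower in LKO livers (C1ra, C8b, Serping1, Kng2, Fga and Serpinf2), and 8.06% of all genes had no overlap (3.92% higher and 4.14% lower).

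**Figure D1:**
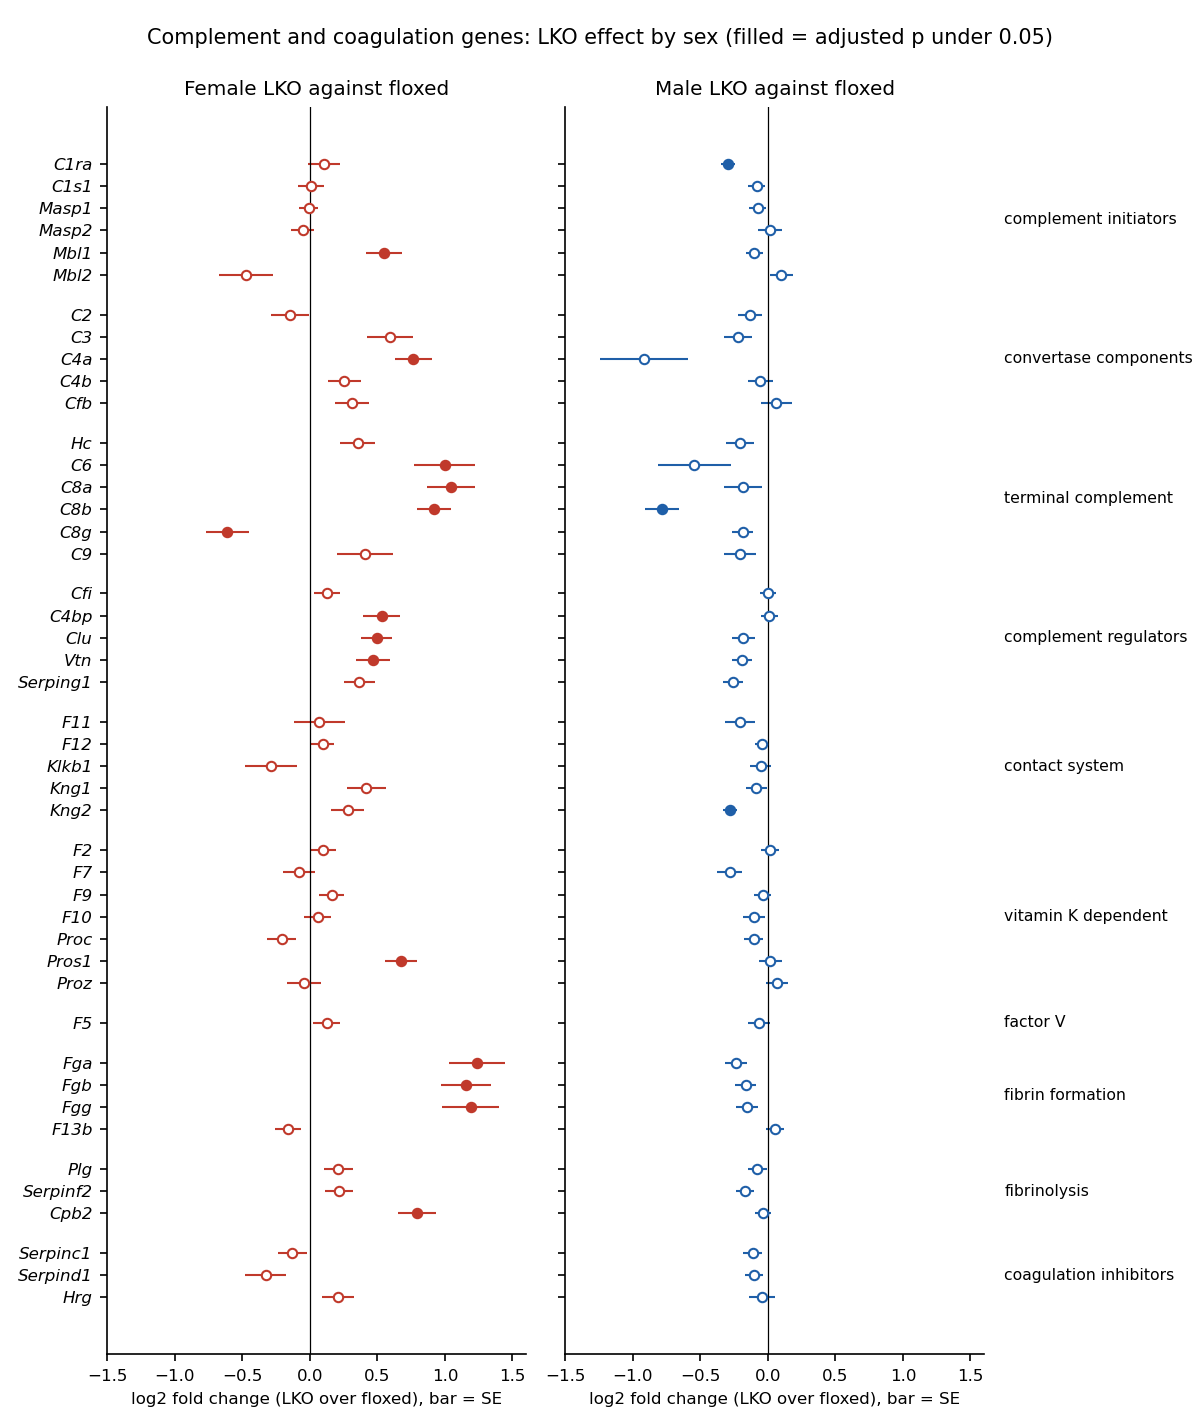
Log2 fold change (x axis, LKO over floxed) of each of the 45 genes, grouped by role, in females (left, red) and males (right, blue). Points are edgeR estimates, bars are SE, and filled points passed an adjusted p of 0.05 over all genes tested: 14 in females, 13 of them right of the line at 0, and 3 in males, all left of it.

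Together the 45 genes took 7.69%, 8.82%, 6.78% and 6.80% of all counts in the LKO females, against 4.87%, 4.99%, 5.47% and 5.82% in the floxed females. In males they took between 3.26% and 3.42% in LKO livers and between 3.49% and 3.76% in floxed livers. The groups did not overlap in either sex, with the LKO share higher in females and lower in males. Per kilobase of exon, Fgg, Fga and C3 had the 3 highest levels in every group, and Fgb and Vtn came next. Cfb, C2 and C4a were among the lowest, with Cfb at 21.5 ± 3.80 CPM in female LKO and 17.2 ± 1.64 CPM in female floxed livers (SD, n = 4 each). Members were well covered: the lowest count was 276 reads (C4a in female floxed 2) and the highest 649831 (C3 in female LKO 6).

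**Figure D2:**
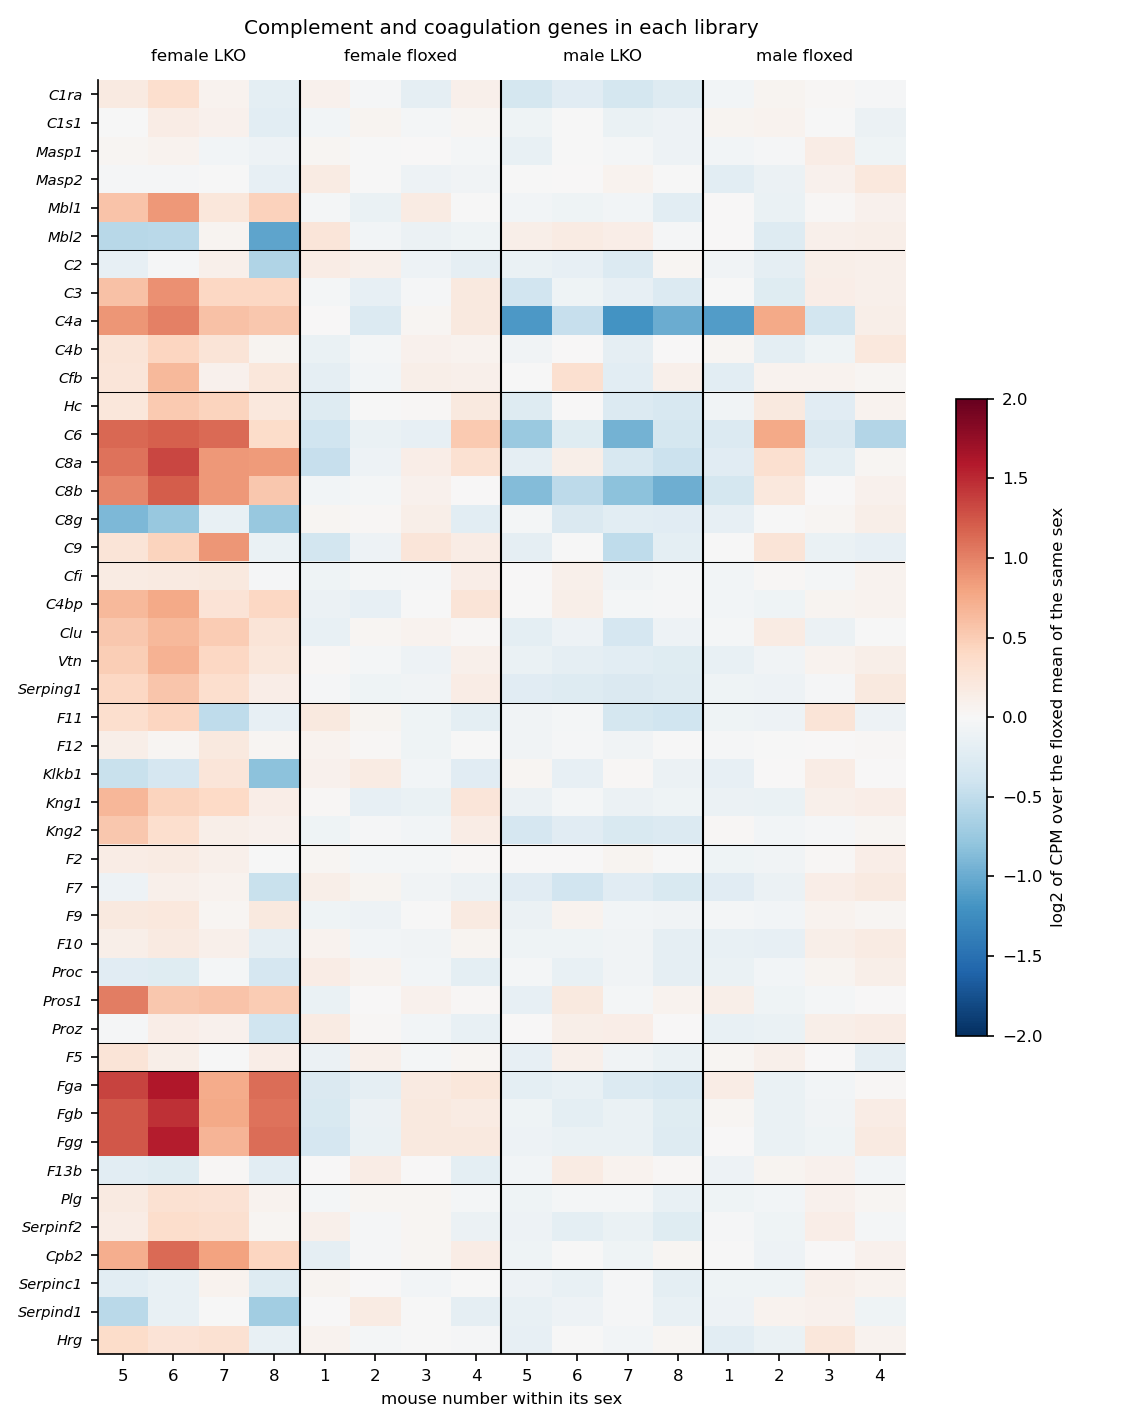
Level of the 45 genes (rows, grouped by role with lines between groups) in each of the 16 libraries (columns, numbered by mouse), as log2 of CPM over the mean of the floxed libraries of the same sex. Red is higher and blue lower; the rows of the fibrinogen chains, C8a, C8b and C6 are red in the female LKO columns, and the rows of C8b and C4a are blue in most male LKO columns.

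Fibrinogen is a dimer of 3 chains, encoded by Fga, Fgb and Fgg, which thrombin turns into the fibrin of a clot. The genes lie side by side on chromosome 3 (mm10), Fga between Fgg and Fgb and 6.5 kb from Fgb. All 3 rose in female LKO livers, by a factor of 2.36, 2.23 and 2.28, and each had 1 of the 5 smallest adjusted p-values of the 45 genes in females. Stretches upstream of the 3 starts are shown because these genes moved together. They are from RefSeq promoters on GRCm38.p6, 5′ to 3′ on the strand of the gene, and capitals mark matches to the motifs described further on (TTCNNNGAA, CTGGGAA and TTGCNNAA on either strand).
Fga (chr3:83025903-83026052, plus strand): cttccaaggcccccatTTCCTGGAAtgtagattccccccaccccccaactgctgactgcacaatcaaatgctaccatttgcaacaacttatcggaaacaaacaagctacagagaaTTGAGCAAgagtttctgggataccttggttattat
Fgb (chr3:83049914-83050063, minus strand): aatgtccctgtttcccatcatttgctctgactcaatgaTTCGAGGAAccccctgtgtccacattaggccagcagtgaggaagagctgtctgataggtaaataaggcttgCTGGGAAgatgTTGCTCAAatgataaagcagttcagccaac
Fgg (chr3:83007574-83007723, plus strand): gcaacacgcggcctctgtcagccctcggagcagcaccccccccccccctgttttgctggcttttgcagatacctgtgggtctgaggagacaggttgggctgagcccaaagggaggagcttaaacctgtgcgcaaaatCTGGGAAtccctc

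Fga was at 11002, 13070.5, 7150.2 and 9360.5 CPM in LKO females 5 to 8 and at 3531, 3784, 4846 and 5022 CPM in floxed females 1 to 4. Every LKO female lay above every floxed female, and LKO 7 was the lowest of its group. The log2 change was 1.24 (SE 0.21, edgeR adjusted p = 0.0101). Male levels of Fga were 2712, 2805, 2561 and 2477 CPM in LKO livers and 3424, 2840.1, 3004 and 3155 CPM in floxed livers, with no overlap and the LKO males below, and the log2 change of -0.23 (SE 0.08, edgeR adjusted p = 0.239) was not called.

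Fgb was at 10213, 11827, 7312 and 9156 CPM in LKO females, against 3508, 3980.4, 4914 and 4840.1 CPM in floxed females. The groups were again apart, and the log2 change was 1.16 (SE 0.19, edgeR adjusted p = 0.00869). LKO males had 2911, 2695, 2830.0 and 2610.2 CPM of Fgb and floxed males 3174, 2834, 2942 and 3438 CPM, in overlapping ranges, with a log2 change of -0.17 (SE 0.08, edgeR adjusted p = 0.445).

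Fgg was at 7514, 9431, 5054 and 6887 CPM in LKO females and 2514, 2876, 3634 and 3619.9 CPM in floxed females. Its log2 change of 1.19 (SE 0.21, edgeR adjusted p = 0.0114) was of the size seen for Fga and Fgb, within the SE of each. In males Fgg had 2155, 2111, 2096 and 1931 CPM in LKO livers and 2325, 2103, 2176 and 2611 CPM in floxed livers, in overlapping ranges, with a log2 change of -0.15 (SE 0.08, edgeR adjusted p = 0.499).

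The fibrinogen genes together took 2.65% ± 0.581 of all counts in LKO females and 1.23% ± 0.226 in floxed females, with 0.737% ± 0.0309 in LKO males and 0.842% ± 0.0772 in floxed males (SD, n = 4 each). The proportions of the 3 transcripts overlapped between LKO and floxed females, while their sum did not. Per exon length Fga made up 36.0% ± 0.729 of the 3 chains in LKO females and 35.1% ± 0.734 in floxed females. The share of Fgb was 27.2% ± 1.09 in LKO females and 27.8% ± 0.497 in floxed females, and that of Fgg 36.8% ± 0.857 in LKO females and 37.1% ± 0.456 in floxed females. In LKO males the shares of Fga, Fgb and Fgg were 33.8%, 28.0% and 38.2%, and in floxed males 35.1%, 27.6% and 37.3%.

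The female calls of Fga, Fgb and Fgg held without any 1 library (largest adjusted p 0.0423, 0.0351 and 0.0449) and under every other setting tried. F13b, the carrier subunit of factor XIII, which crosslinks fibrin, was not called: it was at 208 ± 18.7 CPM in LKO females and 233 ± 22.2 CPM in floxed females (SD, n = 4 each), with a log2 change of -0.16 (SE 0.10, edgeR adjusted p = 0.309).

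**Figure D3:**
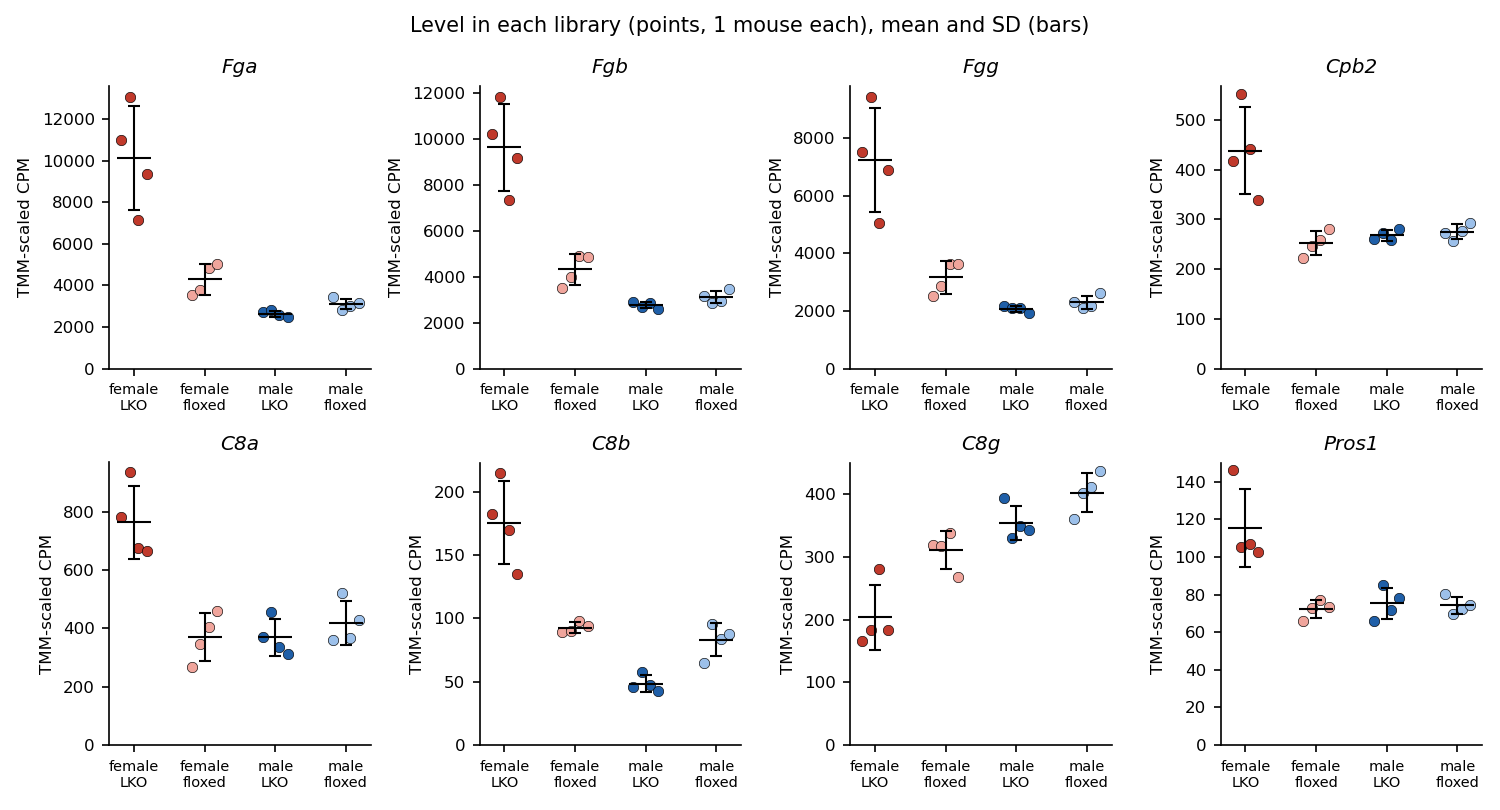
Level in each library (y axis, TMM-scaled CPM) of the fibrinogen chains, Cpb2, the 3 C8 chains and Pros1 in the 4 groups. Points are mice, horizontal lines are means and bars SD (n = 4); in female LKO livers every point lies above the floxed points of the same sex except in the panel of C8g, where 3 of the 4 lie below them.

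The terminal complement genes split. C8 is a complex of the chains encoded by C8a, C8b and C8g, in which C8g encodes a lipocalin joined to the alpha chain that is not needed for the membrane lesion. C8a and C8b are neighbours on chromosome 4, 11.1 kb apart, and C8g is on chromosome 2. In female LKO livers C8a and C8b rose, by a factor of 2.06 and 1.89, while C8g fell to 0.65 of its floxed level. In male LKO livers C8b fell, to 0.58 of its floxed level. Stretches upstream of the 3 starts are shown because the chains of 1 complex moved apart, with matches in capitals as above and here also GGACTTT, the reverse complement of the motif AAAGTCC. The stretch of C8a runs from -250 to -51 and those of C8b and C8g from -150 to -1, so they are not alike in place or length.
C8a (chr4:104876449-104876648, minus strand): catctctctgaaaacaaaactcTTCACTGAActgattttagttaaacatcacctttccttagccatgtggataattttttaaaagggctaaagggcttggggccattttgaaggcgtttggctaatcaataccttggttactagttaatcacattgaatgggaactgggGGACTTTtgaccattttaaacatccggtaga
C8b (chr4:104766167-104766316, plus strand): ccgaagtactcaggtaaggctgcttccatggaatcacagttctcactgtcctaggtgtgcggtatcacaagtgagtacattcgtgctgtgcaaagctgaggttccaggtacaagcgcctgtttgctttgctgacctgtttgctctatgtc
C8g (chr2:25501720-25501869, minus strand): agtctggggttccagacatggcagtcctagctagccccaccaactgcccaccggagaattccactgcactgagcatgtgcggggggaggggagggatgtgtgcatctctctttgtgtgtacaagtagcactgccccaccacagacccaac

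C8b was at 183, 215, 170.1 and 135 CPM in LKO females and 89.6, 90.0, 98.1 and 93.8 CPM in floxed females. The female groups did not overlap, and the log2 change was 0.92 (SE 0.13, edgeR adjusted p = 0.00551), with the smallest adjusted p of the 45 genes. In males C8b was at 45.8, 58.0, 47.1 and 42.4 CPM in LKO livers and 65.2, 96.0, 83.7 and 88.0 CPM in floxed livers. The male groups did not overlap either, in the opposite direction, and the log2 change was -0.78 (SE 0.13, edgeR adjusted p = 0.0173). The male call of C8b was lost without LKO 5, LKO 7, LKO 8 or floxed 3, with adjusted p up to 0.0717, and held under every setting that kept these libraries. Without floxed 1 and 2 it was called, 1 of 2 members called in males there.

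C8a was at 781, 935, 674 and 664 CPM in LKO females and 268, 345, 406 and 458 CPM in floxed females, without overlap. The log2 change was 1.05 (SE 0.18, edgeR adjusted p = 0.0101). LKO males had 371, 456, 337 and 312 CPM of C8a and floxed males 360.3, 523, 365 and 429 CPM, in overlapping ranges, with a log2 change of -0.18 (SE 0.14, edgeR adjusted p = 0.66). The female calls of C8a and C8b held without any 1 library.

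C8g was at 166, 184, 280.3 and 184 CPM in LKO females and 319, 317, 339 and 268 CPM in floxed females. LKO 7 lay above floxed 4, and the other LKO females lay below every floxed female. The log2 change was -0.61 (SE 0.16, edgeR adjusted p = 0.0405), and this call was lost without LKO 5, 6 or 8 or floxed 1, 2 or 3, with adjusted p up to 0.111. In males C8g was at 394, 331, 349.7 and 342 CPM in LKO livers and 361, 402, 412 and 436 CPM in floxed livers, and the log2 change of -0.19 (SE 0.08, edgeR adjusted p = 0.355) was not called.

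Counts per exon length compare the transcripts of the 3 chains, and say nothing of the make-up of the C8 protein. C8g made up 27.9%, 26.5%, 42.7% and 34.3% of the 3 in LKO females 5 to 8, against 66.3%, 62.0%, 60.2% and 52.4% in floxed females 1 to 4. It had the highest transcript level per exon length of the 3 in all floxed females, and C8a had it in LKO 5, 6 and 8. This order rests on the exon lengths used, 1493 bases for C8g and 3636 for C8a. The share of C8a was 50.6% ± 5.94 in LKO females and 29.2% ± 5.81 in floxed females, and that of C8b 16.6% ± 1.80 in LKO females and 10.6% ± 0.332 in floxed females. In males C8g made up 66.4% ± 4.34 in LKO livers and 64.7% ± 3.41 in floxed livers, and C8b 5.31% ± 0.633 in LKO livers and 7.79% ± 0.590 in floxed livers (SD, n = 4 each).

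**Figure D4:**
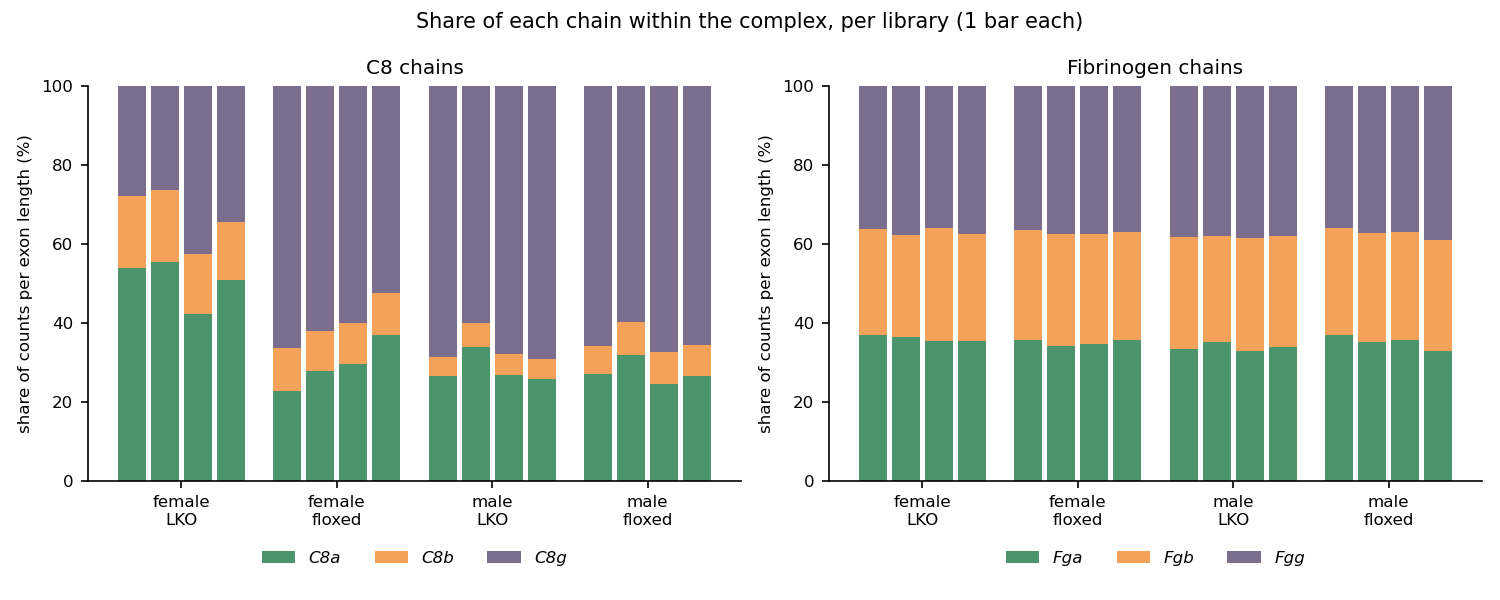
Share (y axis, percent) of each chain in the summed counts per exon length of the 3 C8 chains (left) and of the 3 fibrinogen chains (right), with 1 bar per library. C8g takes 26.5% to 42.7% in female LKO bars and 52.4% to 66.3% in female floxed bars, while Fga takes on average 33.8% to 36.0% of fibrinogen in all 4 groups.

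C6, which binds C5b to start the attack complex, was at 63.6, 65.7, 62.4 and 37.03 CPM in LKO females and 21.6, 25.9, 25.5 and 41.3 CPM in floxed females. LKO 8 lay below floxed 4, and the log2 change was 1.00 (SE 0.23, edgeR adjusted p = 0.0271). The call was lost without LKO 5, LKO 6 or floxed 1, 2 or 3, with adjusted p up to 0.0814. In males C6 was at 58.8, 83.8, 51.1 and 77.2 CPM in LKO livers and 81.6, 167, 80.6 and 65.7 CPM in floxed livers, where floxed 2 stood far above the rest, and the log2 change was -0.54 (SE 0.27, edgeR adjusted p = 0.462). Hc, which encodes C5, was at 1319 ± 148 CPM in LKO females and 1029 ± 133 CPM in floxed females (SD, n = 4 each), with no overlap and a log2 change of 0.36 (SE 0.13, edgeR adjusted p = 0.108). C9, the pore-forming component, had a log2 change of 0.41 (SE 0.21, edgeR adjusted p = 0.228) in females. In males Hc and C9 had log2 changes of -0.21 and -0.21, neither called.

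Of the 6 genes that start complement 1 rose in females and 1 fell in males. Mbl1, a mannose-binding lectin, was at 279.7, 345, 222 and 259.5 CPM in LKO females and 184, 172, 212 and 188 CPM in floxed females, without overlap. The log2 change was 0.55 (SE 0.13, edgeR adjusted p = 0.0338), and the call was lost without LKO 5, 6 or 8 or floxed 1, 2 or 3, with adjusted p up to 0.102. Male levels of Mbl1 were 176, 172, 177 and 158 CPM in LKO livers and 184, 168, 186 and 194 CPM in floxed livers, which overlapped, with a log2 change of -0.10 (SE 0.06, edgeR adjusted p = 0.581). The second lectin, Mbl2, had the opposite sign in females, at 383 ± 123 CPM in LKO and 531 ± 63.3 CPM in floxed livers (SD, n = 4 each), with a log2 change of -0.47 (SE 0.20, edgeR adjusted p = 0.156). No 100-base window of transcript was shared between Mbl1 and Mbl2.

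C1ra, a protease of the C1 complex, was at 173, 188, 173 and 184 CPM in LKO males and 213, 229, 223 and 217 CPM in floxed males. The male groups did not overlap, and the log2 change was -0.30 (SE 0.05, edgeR adjusted p = 0.0333). That call was lost in the absence of any single LKO male, of floxed 2 or of floxed 3 (adjusted p up to 0.119), of both floxed 1 and 2 (0.0605), and in the fit of all 16 libraries (0.242). In females C1ra was at 251.0, 281, 233 and 196 CPM in LKO livers and 236, 219, 196 and 240.0 CPM in floxed livers, in overlapping ranges. C1s1, Masp1 and Masp2 had log2 fold changes between -0.08 and 0.02 in both sexes, and none was called. Of the exon bases of Masp2 54.9% lie opposite exons of Tardbp, and of those of Serpinc1 34.4% opposite exons of Zbtb37, and the strand setting of the counts is not given in the sources used here.

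Among the convertase components C4a rose in females, and 0 of 5 were called in males, where 1.04% of all genes were called. C3, on which all routes of complement converge, was at 16599, 20707, 14717 and 14639.6 CPM in LKO females and 10765, 9889, 10849 and 12644 CPM in floxed females. All LKO females lay above all floxed females, but the log2 change of 0.59 (SE 0.17, edgeR adjusted p = 0.0541) missed the threshold. It passed with DESeq2 (0.000405), limma-voom (0.0375), robust dispersion (0.0399), no filter (0.0352) and the fit of all 16 libraries (0.00735). It also passed without LKO 7 or without floxed 4, gains not read as results since both were chosen by their position. With 1 library left out, edgeR adjusted p was up to 0.154. In males C3 was at 3763, 4618, 4399.5 and 4079 CPM in LKO livers and 4868, 4143, 5383 and 5259 CPM in floxed livers, with a log2 change of -0.22 (SE 0.10, edgeR adjusted p = 0.422).

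C4a, the sex-limited C4 gene of the mouse known as Slp, was at 17.9, 19.6, 14.5 and 14.1 CPM in LKO females and 9.75, 8.04, 9.94 and 11.1 CPM in floxed females, without overlap. The log2 change was 0.77 (SE 0.14, edgeR adjusted p = 0.0123). The annotation used types C4a as a processed transcript and not, like the other members, as protein coding. In males it was at 52.9, 85.3, 51.4 and 58.7 CPM in LKO livers and 54.0, 197, 91.1 and 127 CPM in floxed livers, which overlapped widely, and the log2 change was -0.92 (SE 0.33, edgeR adjusted p = 0.269). C4b, which encodes C4 itself, had a log2 change of 0.26 (SE 0.12, edgeR adjusted p = 0.203) in females and -0.06 (SE 0.09, edgeR adjusted p = 0.877) in males. C4a and C4b are near copies 65.2 kb apart on chromosome 17, and 13.1% of the 100-base windows of C4a transcripts occur in C4b, so that reads could be split between them. C4a was 0.485% ± 0.0421 of the counts of both in LKO females and 0.342% ± 0.0398 in floxed females, with 3.47% ± 0.718 in LKO males and 6.24% ± 3.55 in floxed males (SD, n = 4 each). With both summed, the female log2 fold change was 0.26 (edgeR adjusted p = 0.2), so the call of C4a does not extend to the pair, and in the fit of all 16 libraries C4a was also not called (0.0813).

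C2 and Cfb, which encode the proteases of the convertases, had log2 changes of -0.15 and 0.31 in females and -0.13 and 0.06 in males, none called. Exons of Gm20547, which was not analysed here, cover 79.5% of the exon bases of Cfb and 42.8% of those of C2 on the same strand, and how reads in shared exons were counted is not given. The low levels of both genes carry that limit.

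All 5 complement regulators had positive log2 fold changes in females, and 3 of the 5 rose there. C4bp, which encodes the C4b-binding protein, was at 829, 896, 644 and 712 CPM in LKO females and 491, 476, 526 and 634 CPM in floxed females. The highest floxed female lay just under the lowest LKO female, and the log2 change was 0.53 (SE 0.14, edgeR adjusted p = 0.0395). In males C4bp was at 627 ± 31.1 CPM in LKO livers and 623 ± 33.1 CPM in floxed livers (SD, n = 4 each), with a log2 change of 0.01.

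Clu encodes clusterin, a chaperone that binds the forming attack complex, and Vtn encodes vitronectin, which also blocks it. Clu was at 2201, 2394.6, 2167 and 1826 CPM in LKO females and 1371, 1572, 1593 and 1554 CPM in floxed females, with a log2 change of 0.49 (SE 0.12, edgeR adjusted p = 0.0311). Vtn was at 2881, 3302, 2729.7 and 2383 CPM in LKO females and 2066, 1986, 1908 and 2194 CPM in floxed females, with a log2 change of 0.47 (SE 0.13, edgeR adjusted p = 0.0464). Neither overlapped between the female groups. In males Clu was at 1309, 1397, 1195 and 1410.2 CPM in LKO and 1463, 1680.5, 1382 and 1496 CPM in floxed livers, and Vtn at 1424, 1381, 1358 and 1333 CPM in LKO and 1423, 1496, 1650.5 and 1709 CPM in floxed livers. These male ranges overlapped, and the log2 changes of -0.18 and -0.19 were not called. With library totals in place of TMM the female adjusted p was 0.0583 for C4bp, 0.0509 for Clu and 0.0698 for Vtn, and each of the 3 calls was lost without any 1 of 5 or more female libraries.

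Serping1, which encodes the C1 inhibitor of complement and of the contact system, was at 1274, 1392, 1207 and 1044 CPM in LKO females and 941, 896, 912 and 1059.9 CPM in floxed females. LKO 8 lay under floxed 4, and the log2 change was 0.37 (SE 0.12, edgeR adjusted p = 0.0746). LKO males were at 581, 567, 554 and 569 CPM and floxed males at 638, 635, 671 and 779 CPM, without overlap, and the log2 change of -0.26 (SE 0.07, edgeR adjusted p = 0.156) was not called. Cfi, the protease factor I, had a log2 change of 0.13 in females and 0.00 in males, the male value nearest to 0 of the 45 genes.

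The contact system starts clotting on surfaces and releases bradykinin from kininogen. edgeR called 0 of its 5 genes in females, where 9.29% of all genes were called, and 1 fell in males. At an unadjusted p under 0.05, 2 (Kng1 and Kng2) were higher in females, where 13.5% of all genes were. Kng2, a kininogen gene, was at 219, 236, 224 and 228 CPM in LKO males and 280.1, 266, 272 and 283 CPM in floxed males, without overlap, with a log2 change of -0.28 (SE 0.05, edgeR adjusted p = 0.035). The call was lost without 7 of the 8 male libraries taken singly (edgeR adjusted p up to 0.12). It was also lost without floxed 1 and 2 together (0.0505) and in the fit of all 16 libraries (0.26). The sum of Kng1 and Kng2 was not called either (0.592). Kng1 made up 87.0% of that sum in LKO males and 85.4% in floxed males, so the sum follows Kng1 and cannot decide on Kng2. In females Kng2 was at 535, 461, 396 and 389.8 CPM in LKO livers and 345, 359, 353 and 408 CPM in floxed livers, which overlapped, with a log2 change of 0.28 (SE 0.12, edgeR adjusted p = 0.163). Kng1 had log2 changes of 0.42 in females and -0.09 in males, F11 of 0.07 in females and -0.21 in males, F12 of 0.09 in females and -0.04 in males, and Klkb1, which encodes plasma kallikrein, of -0.29 in females and -0.05 in males. Exons of Gm45753, which was not analysed here, cover 43.2% of those of Klkb1 on the same strand.

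Of the 7 vitamin K dependent proteins, whose glutamates are carboxylated before secretion, Pros1 rose in females. Pros1, which encodes protein S, the cofactor of activated protein C, was at 146, 105, 107 and 103 CPM in LKO females and 66.1, 72.6, 77.1 and 73.3 CPM in floxed females. The groups did not overlap, LKO 5 stood above the rest, and the log2 change was 0.67 (SE 0.12, edgeR adjusted p = 0.0118). In males Pros1 was at 66.0, 84.8, 72.0 and 78.2 CPM in LKO livers and 80.4, 69.9, 72.3 and 74.6 CPM in floxed livers, and the log2 change was 0.02 (SE 0.08, edgeR adjusted p = 0.964). The other 6 were not called: in females the log2 fold changes were 0.10 for F2 (prothrombin), -0.08 for F7, 0.16 for F9, 0.06 for F10, -0.21 for Proc (protein C) and -0.04 for Proz. In males these 6 lay between -0.28 (F7) and 0.07 (Proz), and none was called. F5, the cofactor factor V, had a log2 change of 0.12 in females and -0.06 in males.

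Fibrinolysis removes fibrin through plasmin. Cpb2, which encodes the carboxypeptidase TAFI that slows this by trimming fibrin, rose in females. It was at 418, 552, 442 and 339.5 CPM in LKO females and 222, 247, 259.4 and 280.0 CPM in floxed females, without overlap, with a log2 change of 0.79 (SE 0.14, edgeR adjusted p = 0.0129). In males it was at 260.4, 273, 258 and 281 CPM in LKO livers and 272, 257, 277 and 293 CPM in floxed livers, with a log2 change of -0.04 (SE 0.06, edgeR adjusted p = 0.874). Plg, which encodes plasminogen, had a log2 change of 0.21 (SE 0.11, edgeR adjusted p = 0.239) in females, where its groups did not overlap, and Serpinf2, the plasmin inhibitor, of 0.22 (SE 0.10, edgeR adjusted p = 0.213). In males the log2 change was -0.08 for Plg and -0.17 for Serpinf2. The calls of Cpb2 and Pros1 in females held without any 1 library (largest adjusted p 0.0491 and 0.0464).

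edgeR called 0 of the 3 coagulation inhibitors in either sex, where 9.29% of all genes were called in females and 1.04% in males. At an unadjusted p under 0.05 it had 0 of the 3 as well, where 27.7% of all genes passed in females and 12.3% in males. With 3 genes such counts are not read as a result. Serpinc1 (antithrombin) was at 1738 ± 182 CPM in LKO females and 1899.7 ± 58.4 CPM in floxed females (SD, n = 4 each), with log2 changes of -0.13 in females and -0.11 in males. Serpind1 (heparin cofactor II) had a log2 change of -0.33 in females and -0.10 in males, and Hrg (histidine-rich glycoprotein) of 0.21 in females and -0.04 in males.

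The effect of the knockout was then compared between the sexes, as the female minus the male log2 fold change in a fit of all 16 libraries. It was more positive in females for 15 of the 45 genes and more negative for 0, where 4.42% of the 16126 genes tested were called (1.97% more positive and 2.45% more negative). Of the 1487 genes of at least 100 CPM 9.95% were called (4.24% more positive and 5.72% more negative), against 12 and 0 of the 39 members of that level. The median difference was 0.29 over the 45 genes and 0.01 over all genes. At an unadjusted p under 0.05 edgeR had 23 more positive and 2 more negative (Mbl2 and C8g), where 20.5% of all genes passed (10.1% more positive and 10.4% more negative). DESeq2 called 21 more positive and 0 more negative, with 8.42% of all genes called. limma-voom called 14 more positive and 0 more negative, with 4.22% of all genes called. With library totals in place of TMM the members stayed at 15 and 0, while all genes split into 203 more positive and 698 more negative, against 318 and 395 with TMM.

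C8b had the largest difference, 1.70 (SE 0.19, edgeR adjusted p = 0.000777), followed by C4a at 1.68 (SE 0.40, edgeR adjusted p = 0.0266) and C6 at 1.54 (SE 0.39, edgeR adjusted p = 0.0351). For C4a and C4b summed, where C4b makes up most of the counts, the difference was 0.35 (edgeR adjusted p = 0.179). The difference of C4a alone missed the threshold with limma-voom (0.0594), with robust dispersion (0.0504) and without any 1 of 7 libraries (up to 0.0602). That of C6 missed it with robust dispersion (0.0621) and without any 1 of 9 libraries (up to 0.0785). The fibrinogen chains differed by 1.48 (Fga), 1.32 (Fgb) and 1.34 (Fgg), with SE of 0.23, 0.20 and 0.23 and edgeR adjusted p of 0.0039, 0.0039 and 0.00645. C8a differed by 1.23 (SE 0.24, edgeR adjusted p = 0.0123), Cpb2 by 0.83 (SE 0.16, edgeR adjusted p = 0.0114) and C3 by 0.82 (SE 0.19, edgeR adjusted p = 0.0234). By sign each of these genes was higher in LKO females and lower in LKO males, where C8b alone passed the threshold.

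The remaining differences were smaller. Complement regulators gave 3 of them, Clu at 0.68 (SE 0.14, edgeR adjusted p = 0.0141), Vtn at 0.66 (SE 0.14, edgeR adjusted p = 0.0152) and Serping1 at 0.63 (SE 0.13, edgeR adjusted p = 0.0152). Pros1 differed by 0.65 (SE 0.15, edgeR adjusted p = 0.0212), Mbl1 by 0.65 (SE 0.15, edgeR adjusted p = 0.0234) and Kng2 by 0.56 (SE 0.13, edgeR adjusted p = 0.0211). For 14 of the 15 genes the male log2 fold change was negative, with Pros1 the exception at 0.02. C4bp (0.52, edgeR adjusted p = 0.0576) and Hc (0.57, 0.0646) missed the threshold.

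Of the 15 differences 9 held without any 1 of the 16 libraries (C8a, C8b, Clu, Vtn, Serping1, the fibrinogen chains and Cpb2). Without male floxed 1 and 2 the count was 10, and Mbl1 (0.0599), Clu (0.0629), Kng2 (0.0741), Pros1 (0.0821) and C6 (0.119) missed the threshold. The sum of Kng1 and Kng2, mostly counts of Kng1, also missed the threshold (0.0795).

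**Figure D5:**
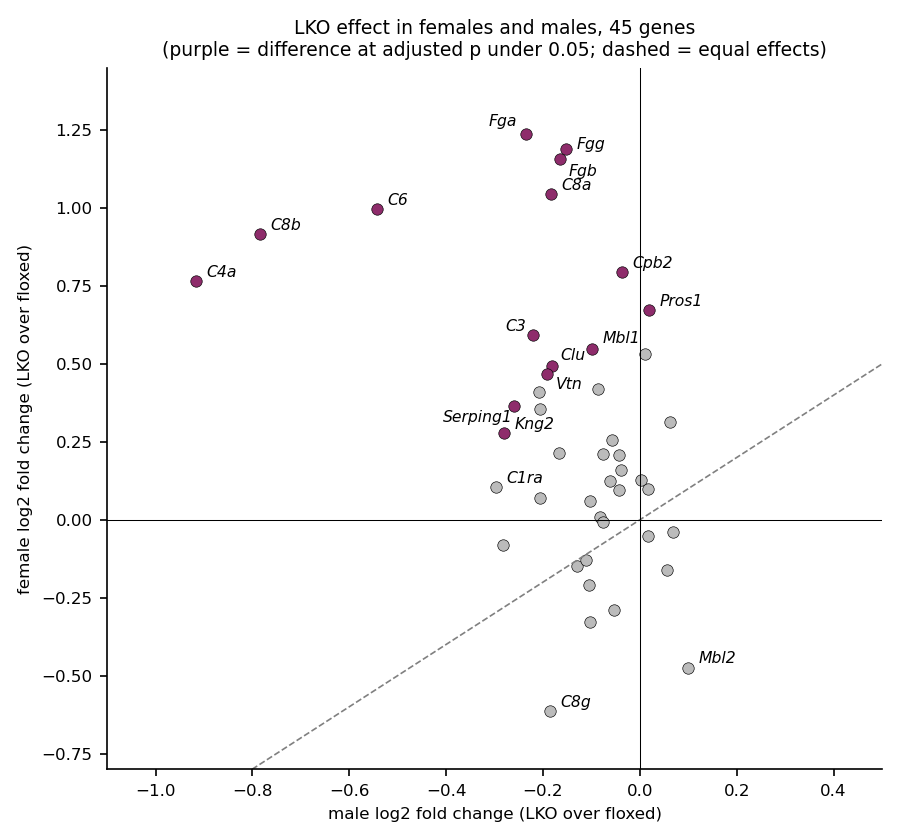
Log2 fold change (LKO over floxed) of each of the 45 genes in females (y axis) against males (x axis), with the dashed line where both are equal. Purple points are the 15 genes whose effect differed between the sexes at an adjusted p under 0.05; all lie above the dashed line, and 14 of them left of the vertical line at 0.

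Over both sexes, as the mean of the female and the male effect, 8 of the 45 genes were called, 7 higher and 1 lower, where 8.55% of the 16126 genes were called (4.05% higher and 4.5% lower). Of genes of at least 100 CPM 14.7% were called (5.92% higher and 8.81% lower), against 6 higher and 1 lower of the 39 members of that level. With library totals 5 members were higher and 2 lower, and 376 of all genes were higher and 1079 lower, against 653 and 726 with TMM. With TMM the higher ones were Fga (0.50), Fgb (0.50), Fgg (0.52), C8a (0.43), Cpb2 (0.38), Pros1 (0.35) and C4bp (0.27), in log2. Of these, all but C4bp also differed between the sexes (values by sex above). C8g was lower, at -0.40 (SE 0.09, edgeR adjusted p = 0.0167). It was the 1 gene with a call over both sexes and a negative log2 fold change in each, and the call held without any 1 library. The calls of C8a and C4bp did not: adjusted p was up to 0.0823 for C8a and up to 0.0794 for C4bp with 1 library left out.

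The floxed controls of the sexes differed as well. Of the 45 genes 18 were higher and 3 lower in floxed females than in floxed males, where 22.9% of all genes were called (11.3% higher and 11.6% lower). Of genes of at least 100 CPM 32.5% were called (14.9% higher and 17.6% lower), against 17 higher and 1 lower of the 39 members of that level. With library totals 22 members were higher and 2 lower, and 2460 of all genes were higher and 1217 lower, against 1826 and 1872 with TMM. With upper quartile scaling the members were 20 and 2, and all genes 2237 and 1483. Sex and deposited table cannot be told apart in this comparison, since each sex was deposited as its own table. The count of members called was 12 without male floxed 1 and 2, with 15.3% of all genes called. C3 had the largest positive difference, 1.17 (SE 0.14, edgeR adjusted p = 2.09e-05), at 11037 ± 1156 CPM in floxed females and 4913 ± 559 CPM in floxed males (SD, n = 4 each). C4b (0.66), Cfb (0.65), F7 (0.52) and Serping1 (0.48) followed in size among the genes called.

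C4a and C6 went the other way. C4a was at 9.70 ± 1.26 CPM in floxed females and 117 ± 61.0 CPM in floxed males (SD, n = 4 each), a log2 difference of -3.59 (SE 0.31, edgeR adjusted p = 7.9e-07), and C6 at 28.6 ± 8.69 CPM in floxed females and 98.7 ± 46.1 CPM in floxed males, a difference of -1.79 (SE 0.28, edgeR adjusted p = 0.000379). Neither overlapped between floxed females and floxed males, as was so for 24.1% of all genes (11.6% higher and 12.5% lower). Summed with C4b, the sign of C4a turned to 0.57 (edgeR adjusted p = 0.000944), C4b making up most of the sum. C1s1 was lower in floxed females, by a log2 difference of -0.25 (SE 0.08, edgeR adjusted p = 0.0313), and lost this call without any 1 of 5 libraries. Cfi, F12, Kng1, Kng2, Plg, Serpinf2, F2, F10, F13b, Fga, Fgb, Hc and Vtn were higher, with log2 differences from 0.25 (F13b) to 0.48 (Fgb). The calls of Fga, Fgb, F13b, Hc and Kng1 were also lost without single libraries, with adjusted p up to 0.128 for Fga. Fgg (0.46, 0.0508) and C8g (-0.37, 0.0523) missed the threshold. These comparisons share the floxed libraries with those of the knockout, so their values stand side by side only.

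The promoters of the genes were then searched for 5 short motifs known from liver genes, on both strands. RefSeq promoters (GRCm38.p6, 250 bases before to 50 after the start) were found for 34 of the 45 genes, 11 of them called higher in females. Masp1, C2, C4a, C4b, Cfb, Cfi, Clu, Serping1, Kng1, Proc and Plg had no entry. A member was counted if any promoter entry of its gene matched, while the shares of all promoters are over single entries, so the units differ. TTCNNNGAA, the core bound by STAT factors, was in 5 of these 11 (Fga, Fgb, C8a, Vtn and Pros1) and in 3 of the other 23, against 8.3% of all 32851 promoters. CTGGGAA, the type II element of interleukin 6 response, was in 4 of the 11 (Fgb, Fgg, C6 and Vtn) and in 4 of the 23, against 11.1% of all. TTGCNNAA, bound by C/EBP factors, was in 3 of the 11 (Fga, Fgb and Cpb2) and in 10 of the 23, against 10.8%.

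GTTAATNAT, the HNF1 motif, was in Fga and C4bp and in 2 of the 23 others, against 0.801% of all promoters, and AAAGTCC, part of the HNF4 motif, was in C8a and Cpb2 and 0 of the 23, against 4.21%. The first 2 motifs can overlap: TTCTGGGAA in Vtn and TTCCCAGAA in Masp2 and F9 hold both. In Fga the match TTCCTGGAA starts 234 bases before the start and in C8a TTCACTGAA 228 bases before it. The printed stretches of C8b and C8g hold none of the 5 motifs, and neither does the rest of their searched promoters. A match says only that the letters are there, and no match says nothing of a factor.

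Other genes of the pathways were counted from lists chosen by function, with earlier results of these data known. Their counts stand beside 9.29% of all genes called in females (4.44% higher and 4.85% lower) and 1.04% in males, and nothing particular to a list is read from them. Of 22 regulators of plasma protein genes 4 rose in LKO females and 0 in LKO males. They were Socs3, the feedback inhibitor of STAT3 signalling, at 63.2 ± 17.1 CPM in LKO females and 27.6 ± 2.21 CPM in floxed females, and Cebpd, a C/EBP factor, at 31.6 ± 12.4 CPM in LKO females and 10.8 ± 1.79 CPM in floxed females (SD, n = 4 each). The liver transcription factor gene Hnf4a was at 845 ± 85.1 CPM in LKO females and 588 ± 59.4 CPM in floxed females, and Creb3l3 at 571 ± 32.0 CPM in LKO females and 438 ± 35.8 CPM in floxed females (SD, n = 4 each). The log2 fold changes were 1.19 (Socs3), 1.55 (Cebpd), 0.52 (Hnf4a) and 0.38 (Creb3l3). The difference between the sexes was called for Socs3 (1.77, edgeR adjusted p = 0.00475) and Hnf4a (0.70, 0.0144).

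Of 19 other proteins that hepatocytes secrete 4 rose and 3 fell in LKO females, and 0 were called in males. Hpx (hemopexin, log2 fold change 1.55), Serpina7 (1.74), Itih4 (0.94) and Ambp (0.71) rose. Alb (albumin, -0.88), Ttr (transthyretin, -0.75) and Serpina6 (-2.31) fell. Of 11 genes of the vitamin K cycle and of clotting factor secretion, Tpst2 rose (0.42) and Pcsk6 fell (-0.34) in females, and Pcsk5 fell in males (-0.35).

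Of the coagulation and fibrinolysis genes made mainly outside hepatocytes 2 of 19 fell in females, the thrombin receptor F2r (-0.88) and F8 (-0.73), and 1 of 17 fell in males, Tfpi2 (-0.59). Of the complement receptors and other complement genes made elsewhere 1 of 21 was called in females (Itgam, 1.24), a smaller share than over all genes, and 1 of 23 in males (Susd4, -0.64).

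Of 10 markers of sinusoidal endothelium 6 fell in LKO females, and their summed level was 211 to 271 CPM in LKO livers and 294 to 322 CPM in floxed livers. Of 10 stellate cell markers 2 fell (411 to 467 CPM in LKO livers, 489 to 567 CPM in floxed livers). Of 10 markers of Kupffer cells and monocytes and of 6 of neutrophils 0 were called, with summed levels of 696 to 1113 and 27.7 to 114 CPM in LKO females, against 605 to 953 and 12.7 to 76.0 CPM in floxed females. The 10 hepatocyte markers summed to 44813 to 64533 CPM in LKO females and 69829 to 80182 CPM in floxed females, where Alb and Ttr fell and Pck1 and Tat rose. The median log2 fold change of these 10 markers in females was 0.32, against 0.00 over all genes, so the sum and the median went opposite ways. In males 0 of these markers were called. Of 5 cholangiocyte markers tested Epcam fell in females, and 0 markers of lymphocytes, platelets or adipocytes were called in either sex, though the adipocyte markers summed to 52.4 to 83.5 CPM in LKO males and 24.7 to 38.0 CPM in floxed males. Most of that sum was the complement gene Cfd, at 47.1 ± 14.8 CPM in LKO males and 17.8 ± 8.96 CPM in floxed males (SD, n = 4 each). Its male log2 change was 1.40 (SE 0.34, edgeR adjusted p = 0.0985). No marker was at 0 in all libraries of a group, and their part in the results was not tested. In floxed females against floxed males 7 of 10 markers of Kupffer cells and monocytes and 5 of 6 of neutrophils were higher.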

How the data were processed

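Liver RNA of 16 mice was sequenced as directional poly(A) libraries, per the labels' protocols. The authors deposited whole-number read counts per gene, 1 table for each sex, with no normalization. Reads were mapped to mm10, per the submitters' processing notes. Aligner, counting tool and strand setting are not given in the sources used here. Of the replicates it is said only that they are separate mice and that the floxed mice were littermates of the LKO mice. Which mice shared a litter is not given, so litter was not in the fits. P-values set an effect against the spread between mice.

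Counts were joined by identifier to GENCODE M21 (GRCm38). Identifiers without a symbol held 0.0349% of female and 0.0289% of male counts and stayed out. Genes were filtered (filterByExpr, minimum count 10 and minimum total 15), scaled with TMM factors, and tested in R 4.3.3 with edgeR 4.0.16 (quasi-likelihood). Each sex was fitted alone for LKO against floxed. All 16 libraries were fitted together for the difference of the effects (female minus male), their mean, and floxed females against floxed males. The table of each sex was made by the authors separately. P-values were adjusted by Benjamini-Hochberg over all genes tested, and SE was derived from the log2 fold change and F. The procedure was tested on simulated counts with the same dispersion for every gene, which does not match the differing spread of the genes here.

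Totals of 30495505 to 36496193 counts per library set the precision. Alternatives were DESeq2 1.42.0, limma-voom 3.58.1, other scalings and filters, robust dispersion, a joint fit, summed paralogs, a replicate block and omitted libraries. Values in every library are given for members called in males, the 12 with the smallest adjusted p in females, and those called for the difference, with the others by log2 fold change or range. Of each list of other genes up to 4 with the smallest p are named, and marker genes only where called. C8g, Itih4, Ttr and Serpina6 fall outside this rule and were added after their values were seen. The members and lists were chosen with earlier results of these data known.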

Additional observations from a re-analysis of the deposited data

Results flagged for a closer look

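In groups of 4 libraries, 1 library stood far from the other 3 for 10 of the 180 groups checked (5.56%), and chance alone sets such a mark in about 1 in 20 groups. In females the libraries were LKO 5 for Pros1 (146 CPM), LKO 7 for C8g (280.3 CPM), F9 (255 CPM) and F13b (236 CPM), LKO 8 for C6 (37.03 CPM) and Cfi (718 CPM), and floxed 1 for Mbl2 (625 CPM). In males they were floxed 1 for Cfb (9.501 CPM), floxed 2 for C6 (167 CPM) and floxed 3 for F11 (58.5 CPM).

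For 15 genes the effect of the knockout differed between the sexes. As female minus male log2 fold change the differences were 1.704 for C8b, 1.68 for C4a, 1.54 for C6, 1.48 for Fga, 1.34 for Fgg, 1.32 for Fgb, 1.23 for C8a, 0.83 for Cpb2, 0.82 for C3, 0.68 for Clu, 0.66 for Vtn, 0.65 for Pros1, 0.65 for Mbl1, 0.63 for Serping1 and 0.56 for Kng2. All passed edgeR's quasi-likelihood test of the difference itself, at adjusted p from 0.000777 (C8b) to 0.0351 (C6).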

How the results depend on the processing

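With 1 library left out in turn, the members called ranged from 0 to 2 in males, 8 to 17 in females, 9 to 18 for the difference between the sexes, 6 to 12 over both sexes and 16 to 25 between the floxed sexes. In the same order, the share of all genes called ranged from 0.444% to 1.15%, 2.53% to 14.7%, 2.49% to 8.77%, 4.81% to 13.8% and 17.5% to 23.9%. Without female floxed 4 and LKO 7 together, 23 were called in females (17 higher and 6 lower, with 19.6% of all genes called), 23 for the difference (19 more positive and 4 more negative, with 12.5% of all genes called) and 13 over both sexes (8 higher and 5 lower, with 17.8%). Both were chosen by their position between the genotypes, which widens the contrast by construction. The male count was 1 in the fit of all 16 libraries, with 0.602% of all genes called. The count between the floxed sexes was 12 without male floxed 1 and 2, with 15.3% of all genes called. With C4a and C4b summed, the difference of C4a between floxed females and floxed males reversed to 0.57; C4b holds most of the summed counts. DESeq2 called 4 members in males, 19 in females, 21 for the difference, 9 over both sexes and 25 between the floxed sexes. In the same order it called 3.37%, 15.6%, 8.42%, 12.7% and 25.9% of all genes, more than edgeR in each comparison. Over the remaining results (single genes and counts by direction), 1679 kept their direction and side of the threshold or stayed within 1.5 times, 184 lost the threshold, 12 gained it and 27 counts by direction moved further. With library totals in place of TMM the median of all genes in females moved to -0.08. Libraries with the same number correlated between -0.119 and 0.130 and matched best in 2 of 8 cases, so no pairing by number was seen. Whether mice of the same number shared a litter or batch is not given, and such correlations cannot decide it. With the number as a replicate block, 12 members were called for the difference and 18 between the floxed sexes, with 2.9% and 18.2% of all genes called. With 4 mice a group, calls near the threshold turn on single libraries.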
